A study of Homo sapiens with 14 samples.

Results

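CCRF-CEM is an established human cell line of T-cell acute lymphoblastic leukemia (T-ALL), represented here by 2 of the 14 HG-U133 Plus 2.0 arrays of the experiment, chosen by their cell line label. One of these arrays read cells kept 6 h in AS605240, which inhibits phosphoinositide 3-kinase (PI3K), at the dose that was the IC50 of CCRF-CEM. The second read cells kept 6 h in vehicle. The remaining 12 arrays gave the same pair of conditions, each at its own IC50, for the T-ALL lines ALL-SIL, HPB-ALL, TALL-1, Jurkat, P12-ICHIKAWA and Molt-4. By the concentrations the study lists, that of CCRF-CEM was the lowest of the 7, so the line and its concentration cannot be told apart. Each line contributed 1 array per treatment, and the 6 other lines served as the replicates against which CCRF-CEM was set.

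Lines of T-ALL keep the imprint of the thymocyte stage at which they arrested and of the transcription factor that drives them. In such cells PI3K signals through AKT, which holds FOXO factors out of the nucleus, and through mTOR complexes, which promote ribosome production and the translation of ATF4. ATF4 is the transcription factor of the amino acid response. It is also made when eIF2α is phosphorylated under amino acid or endoplasmic reticulum stress, and it induces genes for amino acid synthesis, amino acid uptake and tRNA charging. It binds with C/EBP partners to composite elements upstream of its targets.

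All values below are log2(signal + 16) of the brightest probe set that names a single gene, for 19775 genes, so a level near 4 is a signal near 0. Differences on this scale understate the change of dim genes. Signals were similar across arrays, with 47.2% of genes over a signal of 50 on the AS605240 array of CCRF-CEM and 47.0% on its vehicle array, against 44.6% to 47.5% on the arrays of the other lines. The 3′ to 5′ ratio of the GAPDH control probe sets changed by 0.05 with AS605240 in CCRF-CEM, against changes of -0.10 to 0.06 in the other lines. P12-ICHIKAWA and TALL-1 were nearly the same in expression (Pearson r of their mean levels 0.996 across genes, where the other 20 pairs gave 0.907 to 0.953), so the counts of limma calls, the share of genes with the same direction, the projection and the list difference were also computed with these counted as 1 line.

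Under limma, 57 genes were higher and 1 was lower in CCRF-CEM than in the other 6 lines with the adjusted p below 0.05 and more than a 1.5-fold difference, that is 0.288% and 0.00506% of all genes. With P12-ICHIKAWA and TALL-1 as 1 line, 51 were higher and 0 were lower. At an unadjusted p under 0.05, 491 genes were higher and 277 were lower. The fit compares 1 line with 6 and takes CCRF-CEM to vary as the others do. Of the 57 genes, 50 had a signal over 50 on both CCRF-CEM arrays, and 51 had a signal of at most 50 on all 12 arrays of the other lines. With the calls limited to genes that were bright on average over all 14 arrays, 10 genes were higher and 0 lower.

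The gene that set CCRF-CEM apart the most was NKX2-5, a homeobox transcription factor of heart development that is ectopically active in a subset of T-ALL. It stood at 16.88 with AS605240 and 17.05 with vehicle in CCRF-CEM. In the other lines it ranged from 4.57 over a median of 5.48 to 6.05 with AS605240, and from 5.21 over 5.50 to 5.98 with vehicle. The difference was 11.46 ± 0.39 (SE; adjusted p = 5.33e-05), and no array of another line came near the CCRF-CEM values. SOSTDC1, a secreted antagonist of bone morphogenetic proteins, stood at 16.60 with AS605240 and 17.36 with vehicle in CCRF-CEM, against 5.79 to 7.01 on the other 12 arrays (difference 10.55 ± 0.42 SE, adjusted p = 0.00011). NKX2-5 and SOSTDC1 held ranks 1 and 2 of all genes on the AS605240 array of CCRF-CEM and ranks 2 and 1 on its vehicle array. Each was read by 1 probe set that was far brighter on the 2 CCRF-CEM arrays than on any other, so the size of these differences is less certain than their direction.

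The next genes in order of difference belonged to varied functions. TES, which encodes the focal adhesion protein testin, had 13.59 with AS605240 and 13.75 with vehicle in CCRF-CEM and 5.41 to 5.90 in the other lines (difference 8.08 ± 0.15 SE, adjusted p = 6.7e-06). A second TES probe set showed the same contrast, with 9.54 and 9.69 on the CCRF-CEM arrays, against at most 4.65 elsewhere. Another probe set, at 4.46 and 4.74, did not stand apart. HS3ST4, a heparan sulfate sulfotransferase, differed by 5.91 ± 0.32, TNNC1, cardiac and slow muscle troponin C, by 5.83 ± 0.14, and TFR2, transferrin receptor 2, by 5.67 ± 0.25 (SE). AGMAT, agmatinase, differed by 5.62 ± 0.15, RASGEF1A, an exchange factor for Ras family GTPases, by 5.21 ± 0.19, MAP1B, a microtubule-associated protein, by 4.67 ± 0.19, and TSPO, a protein of the outer mitochondrial membrane, by 4.65 ± 0.14 (SE). PRSS3, which encodes mesotrypsin, differed by 4.61 ± 0.19 (SE), and its probe sets can also read near-identical trypsinogen genes. Adjusted p-values of these 8 genes ranged from 2e-05 for TNNC1 to 0.000519 for HS3ST4. The probe set used for a gene was the brightest on average over all 14 arrays, so high CCRF-CEM values bore on that choice. Over the alternative settings run, the smallest difference was 2.21 for AGMAT, 2.56 for RASGEF1A and 2.12 for TFR2. Other probe sets of some of these genes did not stand apart as far. For AGMAT 1 had 4.81 and 4.76 in CCRF-CEM, under the mean of 5.27 in the other lines, and another had 5.61 and 5.84, against at most 4.47. The other probe set of RASGEF1A had 4.14 and 4.12, against a mean of 4.22, and those of TFR2 had 5.40 and 5.16, against at most 5.06, and 4.80 and 4.58, against at most 4.85. On the probe sets used, the 2 CCRF-CEM arrays lay within 0.87 of each other, the width set by MAP1B. Another MAP1B probe set had 5.21 with AS605240 and 10.75 with vehicle, against at most 5.47 elsewhere, so only its vehicle value stood apart. A further one had 8.18 and 9.075, against at most 4.60.

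**Figure D1:**
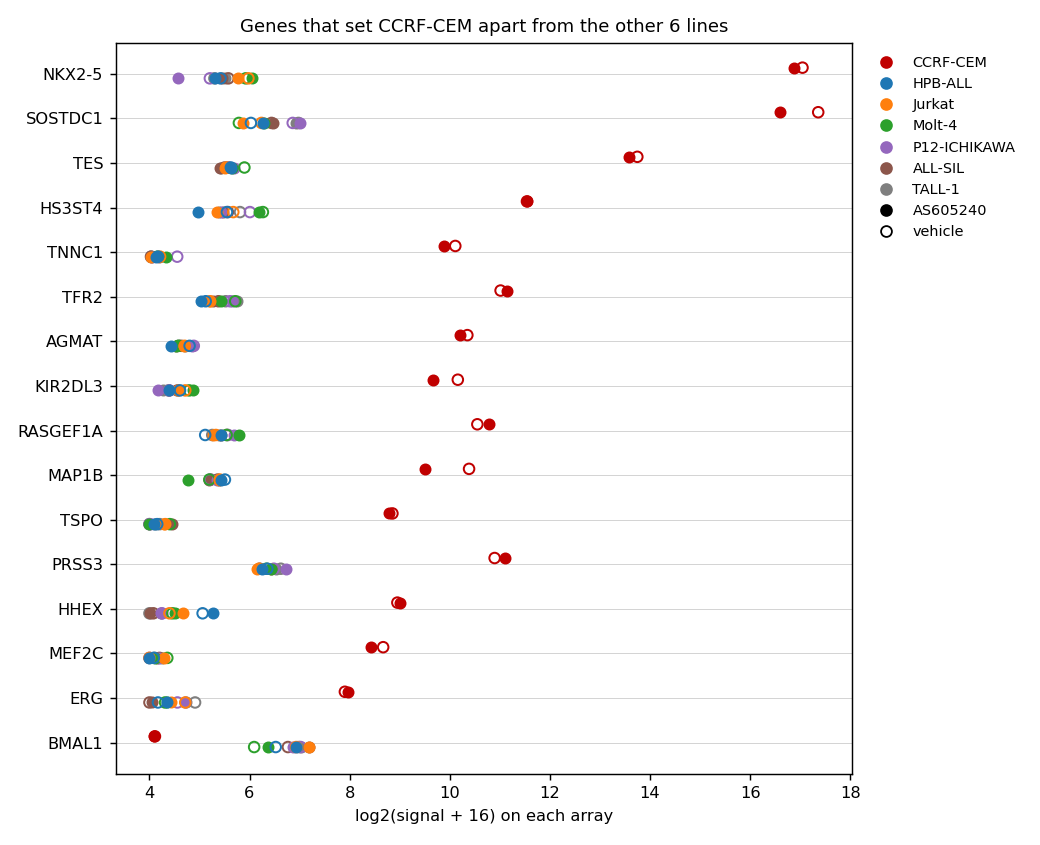
Log2(signal + 16) of the genes with the largest CCRF-CEM differences, of 3 further transcription factors and of the only gene called lower, with one point per array (red, CCRF-CEM, drawn slightly above the other lines; filled, AS605240; open, vehicle). In every row the 2 CCRF-CEM points lie outside the range of the other 12 arrays, from NKX2-5 at 16.88 and 17.05 down to BMAL1 at 4.09 and 4.11. The rule that picked all but the 3 further factors required CCRF-CEM to lie beyond the other lines in both conditions.

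Among 35 measured T-ALL transcription factors, 4 were called higher in CCRF-CEM and 0 lower, beside 0.288% and 0.00506% of all genes. Besides NKX2-5, these were HHEX, MEF2C and ERG. HHEX, a homeobox factor of hematopoietic progenitors, had 9.0 with AS605240 and 8.95 with vehicle in CCRF-CEM, against 4.0 to 5.26 elsewhere (difference 4.55 ± 0.40 SE, adjusted p = 0.00658). MEF2C, a MADS box factor tied to immature T-ALL, had 8.43 and 8.67, against 4.0 to 4.36 elsewhere (difference 4.40 ± 0.12 SE, adjusted p = 3.34e-05). All 3 MEF2C probe sets separated CCRF-CEM from the rest. ERG, an ETS factor of stem and progenitor cells, had 7.97 and 7.90, against 4.0 to 4.91 elsewhere (difference 3.50 ± 0.29 SE, adjusted p = 0.00515). HHEX and ERG lost their calls with an offset of 4 in place of 16 (adjusted p = 0.0725 and 0.0724).

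Other factors of this list were high in CCRF-CEM without being unique to it. TAL1, the basic helix-loop-helix factor of late cortical T-ALL, had 8.09 with AS605240 and 7.91 with vehicle in CCRF-CEM, 10.12 and 10.01 in Jurkat and 9.15 and 9.33 in Molt-4, and at most 4.39 in the remaining 4 lines. LMO2, a partner of TAL1, had 7.22 and 8.10 in CCRF-CEM, 9.32 and 8.60 in P12-ICHIKAWA and 9.14 and 8.38 in TALL-1. LYL1, related to TAL1, had 7.84 and 7.87 in CCRF-CEM, above the 4.49 to 6.45 of every other line, but was not called (difference 2.43, adjusted p = 0.869). MYCN was also highest in CCRF-CEM, at 10.78 and 11.14 against at most 9.09 elsewhere, without a call. TLX1 and TLX3, homeobox factors of cortical T-ALL, stayed at 4.15 and 4.01 and at 4.51 and 4.75. In all, CCRF-CEM was the highest of the 7 lines in both conditions for 8 of the 35 factors, beside 6.8% of all genes.

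The T-cell label of the line held at the level of its defining transcripts. CD3D had 11.41 with AS605240 and 11.74 with vehicle, CD3E 10.08 and 10.04, CD247 9.38 and 9.08, LCK 10.40 and 10.43, ZAP70 9.08 and 9.08 and CD7 8.02 and 8.09. Of 10 T-cell markers, 9 had a signal over 50 on both CCRF-CEM arrays. The tenth was CD2, an adhesion receptor, with 4.14 and 4.62 in CCRF-CEM and 4.50 to 10.14 in the other lines. The summed signal of the T-cell markers was 7222 with AS605240 and 7838 with vehicle in CCRF-CEM, below the 11319 to 16760 of the other arrays, and 5 of the 10 were lowest of the 7 lines on the AS605240 array, beside 11.9% of all genes. None was called (2 had an unadjusted limma p under 0.05, both lower, beside 277 of all 19775 genes). In bulk RNA, fewer cells with a transcript and less transcript per cell cannot be told apart.

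Thymocyte stage markers were mixed, and CCRF-CEM was the lowest of the 7 lines in both conditions for 4 of the 10 measured, beside 5.05% of all genes. CD1B, a lipid-presenting molecule of cortical thymocytes, had 4.22 with AS605240 and 4.27 with vehicle in CCRF-CEM, against 7.60 to 12.45 on the other 12 arrays. CD1E had 4.54 and 4.71, against 5.78 to 12.42, and CD1A had 4.44 and 4.94, against 5.71 to 11.45. CCRF-CEM was therefore below every other line for all 3, with no overlap, while the spread among the other lines kept the limma adjusted p at 0.767 or above. DNTT, the terminal transferase, had 5.39 and 5.03, and PTCRA, the pre-T-cell receptor chain, 5.67 and 5.05, near the low end of the other lines. RAG1, a subunit of the recombinase, had 9.52 and 8.55 and CD4 8.82 and 8.66, both inside the range of the others. CD8B had 11.29 and 11.17 in CCRF-CEM and 15.26 and 15.61 in HPB-ALL, against at most 5.04 in the remaining 5 lines.

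**Figure D2:**
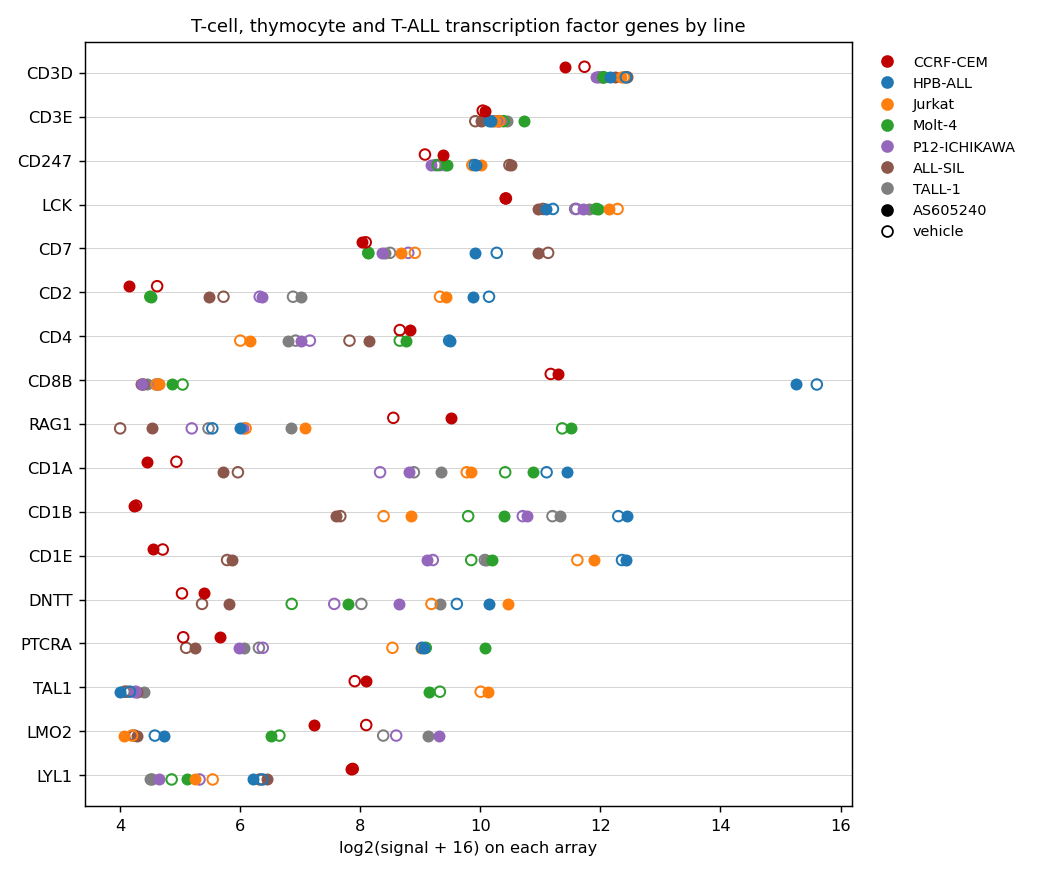
Log2(signal + 16) of T-cell receptor complex genes, thymocyte stage markers and 3 T-ALL transcription factors, with one point per array (red, CCRF-CEM, drawn slightly above the other lines; filled, AS605240; open, vehicle). CCRF-CEM keeps CD3D above 11 and lies below all other lines for CD1A, CD1B and CD1E.

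Most markers of natural killer, B and myeloid cells stayed low. None of the 5 natural killer (NK) markers and 1 each of the 7 B-cell and 7 myeloid markers (CD79A and LYZ, both also over 5 in every other line) had a signal over 50 on both CCRF-CEM arrays. Their summed signals lay inside the range of the other lines. Of 6 measured erythroid and megakaryocyte markers, 2 had a signal over 50 on both CCRF-CEM arrays, and their summed signals also lay inside the range of the other lines. Among 8 epithelial and fibroblast markers, KRT8 had 9.06 and 9.26 in CCRF-CEM, against 7.38 to 8.53, and EPCAM 5.52 and 5.78, against 4.06 to 4.79 (adjusted p = 0.671 and 0.0647), and this list summed to a signal of 741 and 857, against 308 to 556. NCAM1, KLRD1, NCR1, KLRF1 and GNLY of the NK list were all at or under 5.42 in CCRF-CEM. Yet 6 killer cell immunoglobulin-like receptor genes, which NK cells and some T cells use to read HLA class I, were called higher. These were KIR2DL3, KIR3DL3, KIR2DL5A, KIR2DS2, KIR3DL1 and KIR2DS4, with differences from 5.40 ± 0.22 (SE) for KIR2DL3 down to 1.49 ± 0.16 for KIR2DS4. On chromosome 19, KIR3DL3 and KIR2DL3 are next to each other among the measured genes, as are KIR3DL1 and KIR2DS4, 3 genes from KIR2DL3, and KIR2DS2 and KIR2DL5A. The 6 genes are so alike in sequence that 1 transcript could light several probe sets. They are therefore not separate observations, although each entered the count of 57 higher genes. SDC1 and RHOB on chromosome 2, 2 measured genes apart, and CEP170B and GPR132 on chromosome 14, 5 apart, were the other called neighbours, apart from TTYH1, 10 genes before KIR3DL3.

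The only gene called lower was BMAL1, the basic helix-loop-helix activator of the circadian clock. It had 4.09 with AS605240 and 4.11 with vehicle in CCRF-CEM, against 6.09 to 7.19 elsewhere (difference -2.72 ± 0.31 SE, adjusted p = 0.0283). The second BMAL1 probe set had 4.01 and 4.0, against a mean of 6.33 elsewhere. Although no array overlapped, the call was lost when HPB-ALL (adjusted p = 0.0635), Jurkat (0.0617), P12-ICHIKAWA (0.115), ALL-SIL (0.0765) or TALL-1 (0.107) was left out, and with P12-ICHIKAWA and TALL-1 as 1 line (0.115). Over all 17 alternatives the adjusted p ranged from 0.000424 to 0.137, with 8 under 0.05. By a rule of distance, with CCRF-CEM at least 2-fold beyond the nearest line in both conditions, 108 genes lay above and 30 below the other lines (0.546% and 0.152% of all genes). The same rule gave 0 to 185 genes above and 0 to 200 below for each other line, the zeros being P12-ICHIKAWA and, below, TALL-1, each of which has the other as a near copy. Chosen after their values were seen, genes lying far below included CD1B, PTGER4, a prostaglandin E2 receptor (5.62 and 5.56, against 8.48 to 10.70), ANTXR1 (4.94 and 4.91, against 7.56 to 9.66), PLEKHA1, which binds PI3K lipid products (4.0 and 4.21, against 6.76 to 9.42), CD48, a ligand of the CD2 family (4.74 and 4.94, against 7.30 to 10.45), and GBP1, an interferon-induced GTPase (4.53 and 4.61, against 6.80 to 8.95).

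Across all genes the mean level of CCRF-CEM correlated best with that of Jurkat (Pearson r 0.940), followed by Molt-4 (0.934), TALL-1 (0.931), P12-ICHIKAWA (0.930), ALL-SIL (0.912) and HPB-ALL (0.910). These values describe genes within lines, which are not independent replicates. By chromosome, genes of chromosome 20 stood highest in CCRF-CEM. Among 275 genes there that were bright on average, the median was 0.30 above the mean of the other lines and 79.6% were above it, beside a median of 0.06 and 56.1% over 9120 genes of all chromosomes. The chromosome 20 medians of the other lines, computed in the same way, ranged from -0.25 in ALL-SIL to 0.16 in Molt-4. Shifts of about this size or larger were present in other lines on other chromosomes. Examples were 0.30 for chromosome 8 in Molt-4, -0.43 for chromosome 16 in HPB-ALL and -0.36 for chromosome 10 in P12-ICHIKAWA.

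With AS605240, CCRF-CEM changed less than any other line. Its changes had an SD of 0.236 across genes, against 0.255 to 0.312 in the others, and 47 genes moved more than 2-fold (35 lower and 12 higher with AS605240), against 72 to 170. The median change over all genes was 0.00, and 0.00 to 0.04 in the other lines. The interaction of treatment with CCRF-CEM, which is its change minus the mean change of the other 6 lines, was tested with limma with the line as a block. It called 3 genes as more positive and 18 as more negative in CCRF-CEM (0.0152% and 0.091% of all genes), and 315 and 534 had an unadjusted p under 0.05. The count of 18 was 8 without Jurkat, without Molt-4 or without ALL-SIL, 2 with an offset of 4 and 1 without the line block. By distance, with a change at least 1.5-fold beyond the nearest of the others, 8 genes lay above and 50 below (0.0405% and 0.253% of all genes). Given the same interaction test, the other lines had 1 to 7 genes more negative and 2 to 24 more positive. P12-ICHIKAWA, with 1 more negative, and TALL-1, with 2, each had the other as a near copy among the lines compared.

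TNNI3, cardiac troponin I, had the largest interaction. It stood at 5.32 with AS605240 and 9.03 with vehicle in CCRF-CEM, a change of -3.71, while the 6 other lines changed by -0.01 to 0.30 (interaction -3.85 ± 0.18 SE, adjusted p = 6.85e-07). Its level on the vehicle array was above the 5.05 to 5.71 of the other vehicle arrays, and its level on the AS605240 array was inside their range of 5.28 to 5.98. TNNI3 passed the adjusted threshold in all 14 alternatives that could be computed for it, but a single probe set reads it. MAP1B shows how far a single probe set can go: 2 of its probe sets changed by -0.87 and -0.89 in CCRF-CEM and another by -5.55.

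Of the other called genes that fell in CCRF-CEM relative to the other lines, INHBE, an activin subunit, had 5.01 with AS605240 and 7.01 with vehicle (interaction -2.08 ± 0.19 SE, adjusted p = 0.000495). KCNK12, a potassium channel subunit, had 4.98 and 6.81 (-2.02 ± 0.18 SE, adjusted p = 0.000495). RNLS, renalase, TMPRSS3, a membrane serine protease, CYTL1, a secreted cytokine-like protein, and CSF1, the macrophage growth factor, had interactions of -1.58, -1.53, -1.50 and -1.49, with adjusted p-values of 0.00336, 0.00766, 0.0472 and 0.0272. Other probe sets of RNLS, TMPRSS3 and CSF1 did not follow, moving by 0.20, by -0.29 and 0.11, and by -0.52 to 0.23. ANXA3, FAM107B, DDIT4L, EXD2, RUNX2 and GAB2 were called with interactions of -1.43 to -1.01. FAM107B moved by -1.33 and -1.10 on its 2 probe sets, whereas RUNX2 and EXD2 moved on 1 probe set only. GAB2, a docking protein that recruits PI3K, moved by -0.51 in CCRF-CEM and by 0.43 to 0.61 in each other line. DDIT4L, a relative of the mTOR inhibitor DDIT4, was also an identity gene, with 6.45 with AS605240 and 7.77 with vehicle in CCRF-CEM and at most 4.41 elsewhere.

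The 3 genes called in the other direction were NLGN4X, a synaptic adhesion protein, CMTM1, a membrane protein of the chemokine-like factor family, and SHISA3, an endoplasmic reticulum adaptor. NLGN4X had 7.21 with AS605240 and 4.81 with vehicle in CCRF-CEM (interaction 2.49 ± 0.21 SE, adjusted p = 0.000411), but its other probe set changed by -0.24. CMTM1 had 7.11 and 4.97 (2.06 ± 0.33 SE, adjusted p = 0.0358), with the vehicle value below the 6.31 to 8.71 of the other lines and the AS605240 value inside their range of 6.41 to 8.87. SHISA3 had 7.55 and 5.80 (1.70 ± 0.21 SE, adjusted p = 0.00766). Among genes beyond all other lines with a signal over 50 on at least 1 CCRF-CEM array, the next without a call were INSM2 (2.04), PTPN13 (1.21), WDR17 (1.03), HSPA5 (0.93), ZC3H7B (0.87), CLUH (0.82) and MANF (0.81). Without Molt-4, in which it changed by 1.96, INSM2 gave 2.36 and was called (limma adjusted p = 0.00458, 0.00458 to 1 over its alternatives). Without ALL-SIL, in which it changed by -3.96, PTPN13 gave 0.55. CMTM1 lost its call with any 1 of HPB-ALL, Jurkat, Molt-4 and TALL-1 left out (limma adjusted p up to 0.104), CYTL1 with any 1 line other than HPB-ALL left out (up to 0.0967) and CSF1 without Molt-4 or ALL-SIL (up to 0.0571).

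Of the 39 gene lists, that of the ATF4 amino acid response held the most genes called in the response. Of 39 genes written on this list 38 were measured, and 5 of them, CHAC1, SESN2, PCK2, DDIT3 and CARS1, were called lower and 0 higher, beside 0.091% of all genes called lower. A further 23 had an unadjusted limma p under 0.05 in the same direction, 28 in all, beside 534 of all 19775 genes. The median change of the 38 genes was -0.78 in CCRF-CEM. In the other lines it was 0.14 in HPB-ALL, 0.10 in ALL-SIL, 0.03 in Jurkat, -0.02 in Molt-4, -0.14 in TALL-1 and -0.19 in P12-ICHIKAWA. The change of CCRF-CEM was below 0 for 36 of the 38 genes, beside 9638 of all 19775. It was the lowest of the 7 lines for 32, beside 14.7% of all genes.

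CHAC1, a glutathione-degrading enzyme, had 5.15 with AS605240 and 7.71 with vehicle in CCRF-CEM. In the other lines it ranged from 4.28 over a median of 4.97 to 5.98 with AS605240 and from 4.05 over 5.50 to 6.48 with vehicle. Its interaction was -2.20 ± 0.32 (SE, adjusted p = 0.0272). SESN2, a leucine sensor that restrains mTOR complex 1, had 6.60 with AS605240 and 8.41 with vehicle in CCRF-CEM, against 6.30 to 7.28 and 6.20 to 7.41 in the other lines (interaction -1.71 ± 0.26 SE, adjusted p = 0.0274). Its second probe set changed by -1.87. PCK2, mitochondrial phosphoenolpyruvate carboxykinase, had 9.01 with AS605240 and 9.95 with vehicle (interaction -1.44 ± 0.23 SE, adjusted p = 0.0443). DDIT3, which encodes the stress factor CHOP, had 6.41 with AS605240 and 7.30 with vehicle, while it changed by 0.12 to 0.57 in every other line (interaction -1.24 ± 0.19 SE, adjusted p = 0.0321). CARS1, cysteinyl-tRNA synthetase, had 9.75 with AS605240 and 10.66 with vehicle, and changed by 0.02 to 0.39 elsewhere (interaction -1.14 ± 0.18 SE, adjusted p = 0.0337).

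These 5 calls were near the threshold. By limma, CHAC1 lost its call without Jurkat (adjusted p = 0.0674) and stood at 0.05 without ALL-SIL, SESN2 lost it without Jurkat (0.0704), Molt-4 (0.0635) or ALL-SIL (0.0509), DDIT3 without HPB-ALL (0.0538), Jurkat (0.0713), ALL-SIL (0.0509) or TALL-1 (0.0639), and CARS1 and PCK2 without any one of HPB-ALL, Jurkat, Molt-4, ALL-SIL or TALL-1 (0.0538 to 0.0893 for CARS1 and 0.077 to 0.11 for PCK2). With an offset of 4 none of the 5 was called (0.308 to 1), nor without the line block (1), and over all alternatives the adjusted p of the 5 ranged from 0.00458 to 1. Their directions did not turn under any alternative run. Just outside were ASNS, asparagine synthetase, with 8.63 with AS605240 and 10.19 with vehicle in CCRF-CEM (interaction -1.50 ± 0.25 SE, adjusted p = 0.0515), ATF4 itself, with 11.52 and 11.98 (-1.04 ± 0.18 SE, adjusted p = 0.0664), ATF3 (-1.48 ± 0.26 SE, adjusted p = 0.0703) and SLC7A11, the cystine transporter (-2.17 ± 0.39 SE, adjusted p = 0.084). ATF4 changed by -0.46 in CCRF-CEM and by 0.40 to 0.78 in the other 6 lines, and ATF3 by -1.05 in CCRF-CEM and by 0.17 to 0.95 in the other 6.

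On the vehicle arrays CCRF-CEM was the highest of the 7 lines for 26 of the 38 genes, beside 13.8% of all genes, and on the AS605240 arrays for 4 of the 38, beside 12.4% of all genes. It was the lowest of the 7 lines for 3 of the 38 with AS605240. The median level of the list in CCRF-CEM was 9.05 with AS605240 and 10.05 with vehicle, against 8.26 to 9.25 with AS605240 and 8.50 to 9.18 with vehicle in the other lines. PSAT1, of serine synthesis, had 10.92 with AS605240 and 12.17 with vehicle in CCRF-CEM, against at most 11.29 elsewhere, and TRIB3, a pseudokinase, had 9.38 and 10.52, against at most 9.54. The single vehicle array enters both the level and the change, so these counts are not separate observations, and an effect of the inhibitor and a state of that 1 vehicle culture cannot be told apart.

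**Figure D3:**
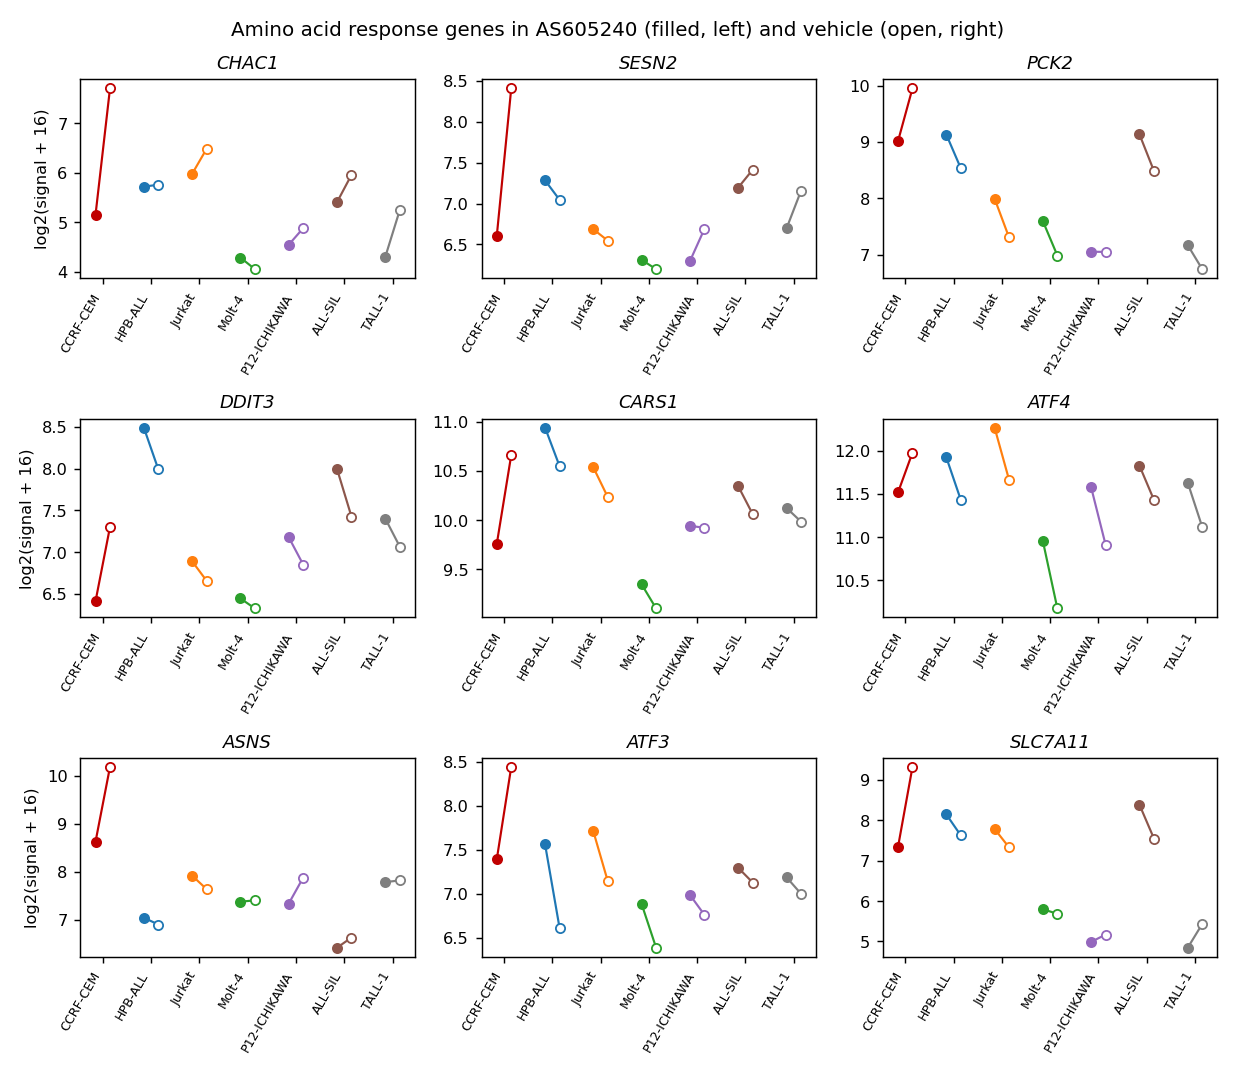
Log2(signal + 16) of 9 amino acid response genes in each line, with AS605240 (filled, left) joined to vehicle (open, right); the vertical axis of each panel has its own range. In CCRF-CEM (red) the AS605240 point lies below the vehicle point in all 9 panels, and for ATF3, ATF4, DDIT3, PCK2 and CARS1 each other line has AS605240 at or above vehicle. The genes shown are those called lower in the CCRF-CEM response and those just outside, a choice that favours a fall in CCRF-CEM.

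The upstream regions of these genes were read for TGATGNAA, the core of the composite C/EBP and ATF element, on either strand within 250 bases before the RefSeq start (GRCh38.p14). Of the 38 genes 33 had a promoter in the table, and 8 of them held a match, 24.2%, beside 1104 of all 35116 promoters, 3.14%. The list was written from known ATF4 targets, so this share describes the list and not these arrays. The share of 24.2% counts genes with a match in any promoter, and that of 3.14% counts promoters, so their units differ. The 5 matches in genes that moved by more than 2-fold in CCRF-CEM are shown 5′ to 3′ on the strand of the gene, with the 8 matching bases in capitals, as examples of the element. Of these genes only CHAC1 was called.
CHAC1: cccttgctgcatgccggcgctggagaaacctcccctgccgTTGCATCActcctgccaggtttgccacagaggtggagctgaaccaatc
ASNS: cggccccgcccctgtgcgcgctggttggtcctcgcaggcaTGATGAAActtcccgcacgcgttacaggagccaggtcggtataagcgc
SLC1A5: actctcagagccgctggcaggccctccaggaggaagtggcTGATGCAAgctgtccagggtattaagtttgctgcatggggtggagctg
GARS1: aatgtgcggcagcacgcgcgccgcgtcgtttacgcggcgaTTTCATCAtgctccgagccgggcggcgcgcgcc
ATF3: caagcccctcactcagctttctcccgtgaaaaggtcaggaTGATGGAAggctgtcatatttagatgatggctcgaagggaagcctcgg
The windows are chr15:40953222-40953309 on the plus strand for CHAC1, chr7:97872429-97872516 on the minus strand for ASNS, chr19:46784864-46784951 on the minus strand for SLC1A5, chr7:30594805-30594877 on the plus strand for GARS1 and chr1:212565176-212565263 on the plus strand for ATF3. The match begins 209 bases before the start in CHAC1, 68 in ASNS, 97 in SLC1A5, 33 in GARS1 and 191 in ATF3, and it reads on the opposite strand in CHAC1 and GARS1. SLC1A5, a neutral amino acid transporter, changed by -1.19 in CCRF-CEM and by -0.79 to -0.19 elsewhere, and GARS1, glycyl-tRNA synthetase, by -1.06 and by -0.53 to 0.09 elsewhere, neither with a call. SESN2, DDIT3, PCK2 and CARS1 held no match in the window searched.

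Aminoacyl-tRNA synthetases, which charge tRNAs with amino acids, also had their lowest median in CCRF-CEM, at -0.45, against -0.39 to -0.07 in the other lines. All 18 measured members changed by less than 0 in CCRF-CEM, and 1, CARS1, was called. Of all 19775 genes, 9638 changed by less than 0 in CCRF-CEM. The median of the synthetases was below 0 in every other line too, at -0.39 in P12-ICHIKAWA. The list shares 5 genes with the ATF4 list. Cytosolic ribosomal proteins had a median change of -0.09 in CCRF-CEM, against -0.01 to 0.07, and CCRF-CEM had the lowest change of the 7 lines for 37 of 52, beside 14.7% of all genes, with 0 called and 0 at an unadjusted limma p under 0.05.

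The response that the other 6 lines share was smaller in CCRF-CEM. Paired limma on these 6 lines, in which CCRF-CEM played no part, called 125 genes lower and 246 higher with AS605240 (0.632% and 1.24% of all genes). Of those 371, 360 (97.0%) had the same sign of change in CCRF-CEM. The same share for each other line, set against genes called without it, was 95.7% to 98.9%. The projection scales the change of a line to the mean of the rest, a value of 1 standing for equal size, and CCRF-CEM reached 0.604, below HPB-ALL (0.746), ALL-SIL (0.811), Jurkat (0.912), Molt-4 (1.06), TALL-1 (1.12) and P12-ICHIKAWA (1.16). Over all genes its projection was 0.556, against 0.666 to 1.02 in the other lines. For P12-ICHIKAWA and TALL-1 the rest includes a near copy, which bears on their projections and on their shares in this paragraph. CCRF-CEM had the smallest change of the 7 lines in that direction for 154 of the 371 genes (41.5%), while each other line did so for 5.76% to 27.6% of its own set. With 1 line against 6, an exact permutation test cannot go below p = 0.143, so these values are a description. Of the 371 genes, 69 had an unadjusted interaction p under 0.05 and 0 were called by limma, with or without an intensity trend. Over all 19775 genes, 315 were more positive and 534 more negative at that unadjusted limma p. The 371 genes were chosen by changes of the same 6 lines that enter the interaction, which bears on the count of 69.

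**Figure D4:**
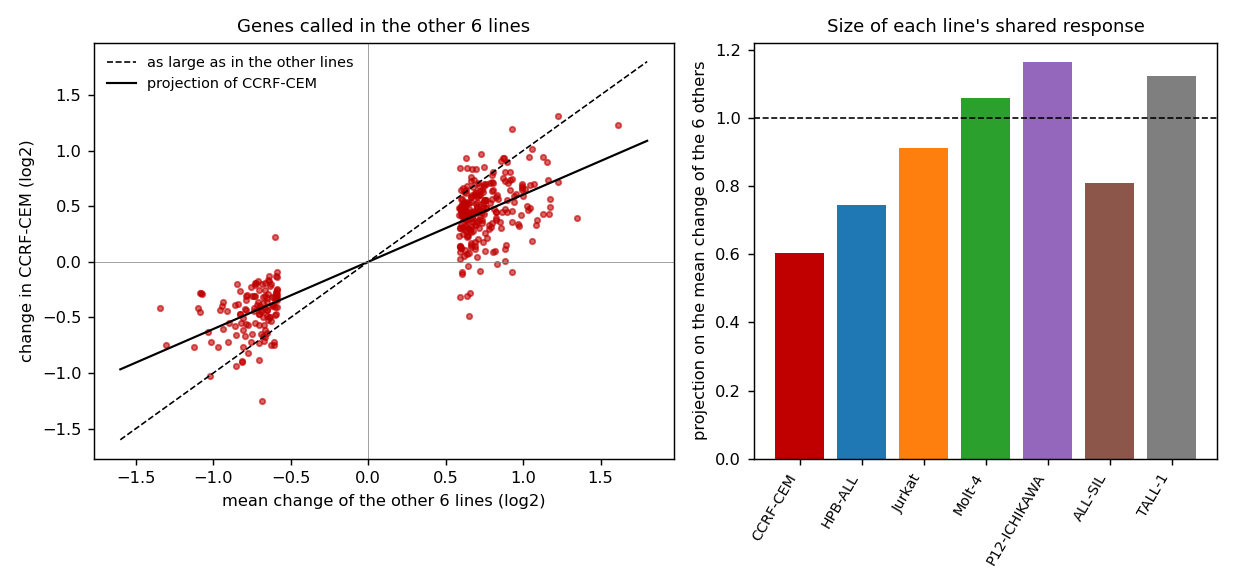
Left, change in CCRF-CEM against the mean change of the other 6 lines for the genes called in those 6 lines, on the log2(signal + 16) scale, with the line of equal change (dashed) and the projection of CCRF-CEM (solid). Right, the projection of each line on the mean of the 6 others, from 0.604 in CCRF-CEM to 1.16 in P12-ICHIKAWA.

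Of the 5 genes that the other lines lowered the most, HSPA5, the chief chaperone of the endoplasmic reticulum, changed by -0.42 in CCRF-CEM and by -1.95 to -0.67 elsewhere. It had 9.50 with AS605240 and 9.92 with vehicle in CCRF-CEM, where the vehicle value was below the 10.72 to 11.23 of the other lines. MANF, another endoplasmic reticulum stress protein, changed by -0.28 and by -1.53 to -0.72 elsewhere, CCDC86, a nucleolar protein, by -0.75 and by -1.43 to -1.16, PNO1, a ribosome assembly factor, by -0.77 and by -1.40 to -0.75, and HMGCS1, of cholesterol synthesis, by -0.42 and by -2.43 to -0.61. HSPA5, MANF, CCDC86 and HMGCS1 thus lay outside the range of the other 6 lines, on the side of less change, and PNO1 lay inside it. Genes were picked here by their change in the other 6 lines, which favours less change in the line left out. The top genes for other lines left out were not read in this way. Of the 5 most raised elsewhere, CCNG2, an atypical cyclin induced by FOXO, changed by 0.72 in CCRF-CEM and by 0.99 to 1.49 in the others. ABTB1 (1.23, against 1.18 to 2.11), NATD1 (1.31, against 0.52 to 1.94), ANXA2R (0.56, against 0.48 to 2.36) and RGS1 (0.40, against -0.06 to 2.61) lay inside the range of the others.

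Ribosome biogenesis had a median change of -0.19 in CCRF-CEM, against -0.55 to -0.32 in the other lines, and 44 of 84 genes had their highest change in CCRF-CEM, beside 12% of all genes. Of its genes, 0 were called. An unadjusted limma p under 0.05 was reached by 17, all more positive in CCRF-CEM, beside 315 of all 19775 genes. Among the 17 were POLR1G of RNA polymerase I (-0.20, against -1.02 to -0.73) and RRP1B (0.08, against -0.64 to -0.41). FOXO targets had a median change of 0.22, against 0.29 to 0.58 in the other lines, and endoplasmic reticulum chaperones of -0.12, against -0.39 to -0.16. Within the FOXO list, TSC22D3, a glucocorticoid-induced leucine zipper protein, changed by -0.49 in CCRF-CEM and by 0.21 to 1.16 in the other lines, from a vehicle level of 8.81 that exceeded their 4.22 to 7.24. KLHL24 changed by 0.70 in CCRF-CEM, against -0.12 to 0.11. Neither was called (adjusted p = 0.644 and 0.513).

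**Figure D5:**
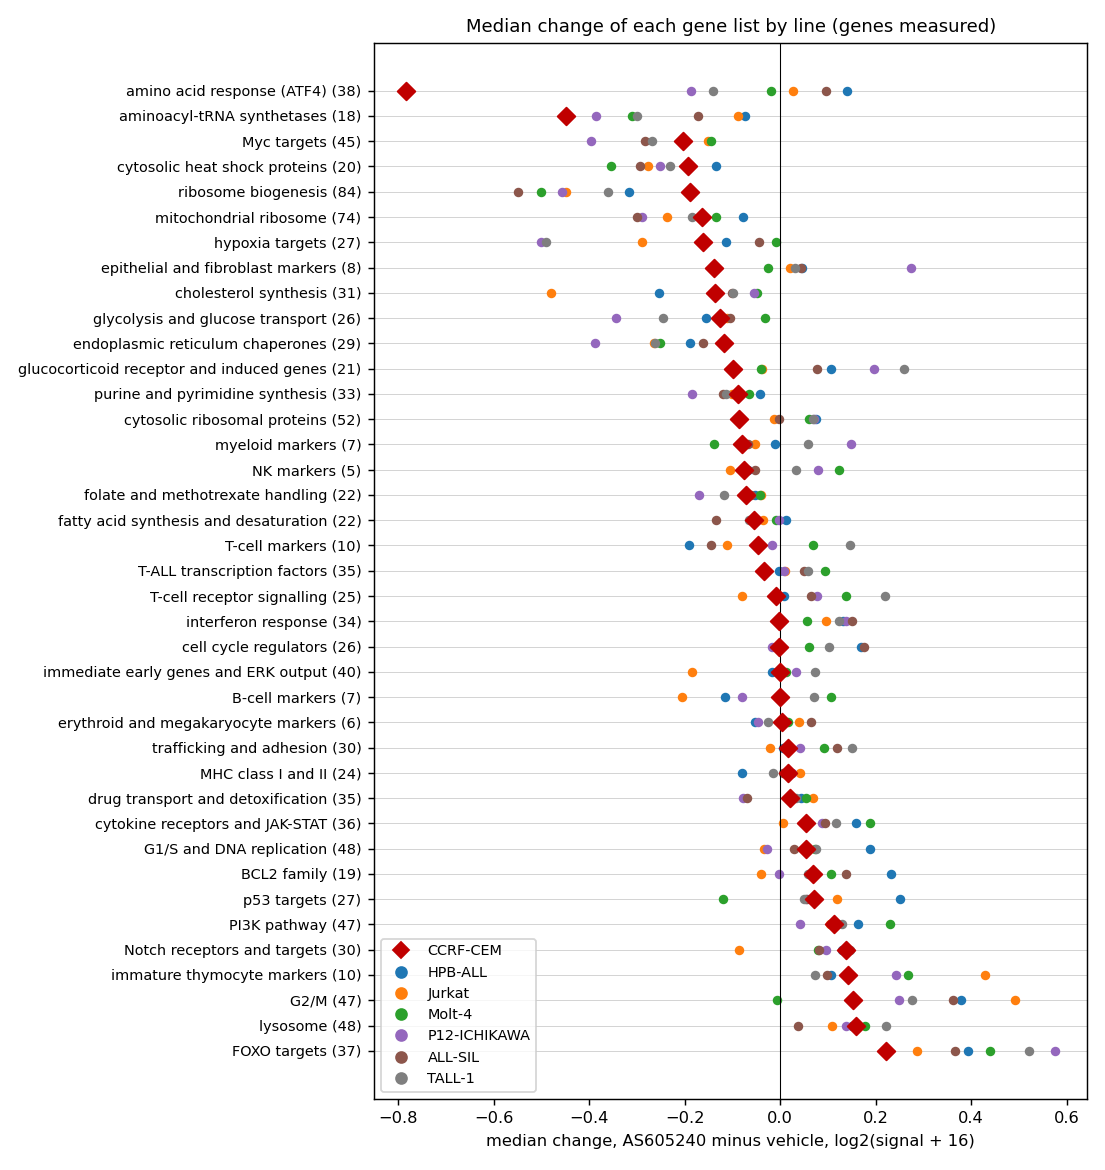
Median change with AS605240, on the log2(signal + 16) scale, of each of 39 gene lists in CCRF-CEM (red diamonds) and in the other 6 lines (dots), ordered by CCRF-CEM, with the number of genes measured in parentheses. The amino acid response list stands at -0.78 in CCRF-CEM, against -0.19 to 0.14 elsewhere.

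Of 47 measured genes of the PI3K pathway itself, CCRF-CEM was the highest of the 7 lines in both conditions for 3 and the lowest for 5, beside 6.8% and 5.05% of all genes. Of the 47, 0 were called in identity or in response. At an unadjusted limma p under 0.05, 2 were higher and 2 lower in identity, and 1 was lower in response. Over all 19775 genes these counts were 491, 277 and 534. PIK3CG, the catalytic subunit that AS605240 was developed against, had 8.15 with AS605240 and 8.01 with vehicle in CCRF-CEM, and 7.56 to 9.0 elsewhere. PIK3CD had 8.18 and 7.27, inside the range of the others. EIF4EBP1, a repressor of translation under mTOR control, had 9.52 and 10.32, against 5.87 to 9.29, and IRS2, an insulin receptor adaptor, 4.65 and 4.20, against 4.83 to 9.82, neither with a call. PIK3IP1, an inhibitor of PI3K, changed by 0.19 in CCRF-CEM and by 0.13 to 0.83 elsewhere. The median change of the list was 0.11 in CCRF-CEM and 0.04 to 0.23 in the other lines.

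Of the 39 lists described, 35 had no member called in response. The exceptions were the amino acid response, tRNA synthetases through CARS1, p53 targets through SESN2 (both genes are also on the amino acid response list) and T-ALL transcription factors through RUNX2. Interferon response genes had a median change of 0.00 in CCRF-CEM and 0.06 to 0.15 in the other lines. An unadjusted limma p under 0.05 was reached by 6 of 34, all more negative in CCRF-CEM, beside 534 of all 19775 genes. RSAD2 (0.32, against 0.75 to 1.2) was 1 of the 6. Glucocorticoid receptor and induced genes had a median of -0.10, against -0.04 to 0.26, with NR3C1, the receptor, at -0.33 in CCRF-CEM and 0.10 to 0.53 elsewhere (adjusted p = 0.882). G2/M genes had a median of 0.15, against -0.01 to 0.49, and cholesterol synthesis genes of -0.14, against -0.48 to -0.05.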

How the data were processed

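RNA of 7 T-ALL cell lines, each cultured for 6 h with AS605240 at its IC50 or with vehicle, was measured on HG-U133 Plus 2.0 arrays. The authors deposited 1 linear signal intensity for each probe set of an array, which the paper's methods attribute to iterPLIER. Among tools, Affymetrix Expression Console (1.3.1.187) and PLIER are listed in the submitters' processing notes. How arrays were normalized was not given in the sources used here. Here 16 was added and log2 taken. Of 54675 probe sets, 41091 named a single gene, 1801 several, 11721 none here, and 62 were controls; the brightest single-gene probe set stood for each of 19775 genes, with symbols updated through RefSeq.

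In R 4.3.3 with limma 3.58.1, CCRF-CEM was compared with the other 6 lines on line means (5 residual degrees of freedom), and its response by the treatment interaction with the line as a block over 14 arrays. Adjusted p-values are Benjamini-Hochberg over all genes. A call needed an adjusted p below 0.05 with more than a 1.5-fold difference. A lone line is assumed to vary like the others, and the spread between lines includes array noise. Precision is limited by the few arrays. The fits were tested on simulated data. The alternatives changed the offset, the normalization, the filter, the probe set rule, the lines or arrays included, the block and the variance trend. The amino acid response list was put through them as an alternative chosen after seeing the data. The 39 lists, members and rules were chosen with earlier results of these data known. Named were the 12 largest called identity differences in each direction that lay beyond all lines and over a signal of 50, the 10 largest interactions in each direction (over a signal of 50 on at least 1 CCRF-CEM array, and filled up from genes beyond all other lines), the 5 largest changes in each direction in the other 6 lines (a rule added later), list members that were called or else the 3 with the smallest p, and members of the PI3K pathway and T-ALL transcription factor lists. Other named members of the marker, amino acid response and pathway lists, and the genes of the closing observations, were chosen after their values were seen. Genes of the Y chromosome and XIST are not named. Some list genes had no single-gene probe set and were not analysed here.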

Additional observations from a re-analysis of the deposited data

Results flagged for a closer look

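The median change of the amino acid response list in CCRF-CEM, -0.78, stood apart from those of the other 6 lines by Dixon's test over the 7 lines. In 71 such groups tested (lists, line summaries, and the levels or changes of named genes among the other 6 lines), 3 values stood apart. Chance flags about 1 in 20 groups. The lists were chosen with earlier results of these data known, and P12-ICHIKAWA and TALL-1, near copies, entered as separate lines. The flags are therefore a description and not a test of the list. The other values were those of Jurkat for Notch receptors and targets (-0.086) and for immediate early genes and ERK output (-0.185).

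The response of CCRF-CEM differed from that of the other lines by the limma interaction for 21 genes. The differences were -3.85 for TNNI3, -2.20 for CHAC1, -2.08 for INHBE, -2.02 for KCNK12, -1.71 for SESN2, -1.58 for RNLS, -1.53 for TMPRSS3, -1.50 for CYTL1, -1.49 for CSF1, -1.44 for PCK2 and -1.43 for ANXA3. They were -1.39 for FAM107B, -1.39 for DDIT4L, -1.24 for DDIT3, -1.19 for EXD2, -1.14 for CARS1, -1.12 for RUNX2, -1.01 for GAB2, 1.70 for SHISA3, 2.06 for CMTM1 and 2.49 for NLGN4X.

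Outside the genes analysed, 13522 probe sets that name several genes or none here were put through the same identity fit. Of these, 25 (0.185%) were higher and 1 was lower in CCRF-CEM. In the interaction fit, 2 were higher and 1 was lower.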

How the results depend on the processing

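Of the main results, the projection (0.556 to 0.623) and the amino acid response list (CCRF-CEM below the median of the other lines by -0.787, with -0.899 to -0.681 over the alternatives) kept their size under every alternative run for them. The count of 57 higher identity genes was 10 with brighter genes only, which tested fewer genes, and 88 with a random block in place of line means. The single lower gene became 2 with an offset of 4, with median centring, with the mean of all probe sets and on AS605240 arrays only, 4 on vehicle arrays only, 22 with a random block, and 0 with an offset of 64, with brighter genes only or with P12-ICHIKAWA and TALL-1 as 1 line. The 3 genes with a more positive response were 0 with an offset of 4 and 0 without the line (replicate) block. The 18 with a more negative response were 2 with an offset of 4, 10 with the mean of all probe sets and 1 without the block. The share of same-direction genes, 97.0%, was 93.4% with an offset of 4, 98.7% with an offset of 64, 98.7% with the mean of all probe sets and 100% of 7 genes without the block. The cause of these shifts was not tested.

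Leaving out 1 line at a time gave 49 to 80 higher identity genes and 0 to 8 lower (8 without ALL-SIL), 2 to 4 more positive responses and 8 to 17 more negative ones (8 without Jurkat, Molt-4 or ALL-SIL), a share of 95.5% (without Molt-4) to 97.4%, a projection of 0.572 to 0.613 and a list difference of -0.810 to -0.764. No direction turned. The number of arrays, and signals near background in most lines, limit what can be called.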

Other observations

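Some groups not described above had values in CCRF-CEM at the edge of the other lines. Of 20 measured cytosolic heat shock genes, CCRF-CEM was the lowest of the 7 lines for 8 with vehicle and for 5 with AS605240. This held for 2275 and 2363 of all 19775 genes. Among the 20, 0 were called, and 4 had an unadjusted limma p under 0.05, all lower, beside 277 of all genes. DNAJB1, a cochaperone of HSP70, had 8.69 with AS605240 and 8.70 with vehicle in CCRF-CEM, against 9.23 to 10.82 on the other 12 arrays, and HSPH1 had 9.32 and 9.52, against 9.61 to 11.09. Of 34 interferon response genes CCRF-CEM was the lowest of the 7 lines in both conditions for 7, and of 24 MHC genes for 5, beside 999 of 19775 genes overall.

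Among adhesion and trafficking genes, ITGAL, the integrin chain of LFA-1, had 5.59 with AS605240 and 6.07 with vehicle in CCRF-CEM, against 6.97 to 11.52 elsewhere, while CCR7, the lymph node homing receptor, had 8.79 and 8.31, against 4.96 to 7.76. Neither was called.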
